A study of Mus musculus with 6 samples.

Results

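Chromatin remodellers and histone-modifying enzymes were examined in mouse midbrain dopaminergic neurons after knockdown of the chromatin organiser Satb1. The members were the rows of the deposited gene count table whose symbol begins with Smarc, with Chd, Hdac, Sirt, Cbx or Kat and a digit, or with Kdm, together with Ezh1 and Ezh2. These were 71 of 23079 rows: 14 SMARC, 10 CHD, 11 HDAC, 7 SIRT, 16 KDM, 3 KAT, 2 EZH and 8 CBX genes. Control libraries came from neurons given AAV1 with a scrambled short hairpin RNA and EGFP, and knockdown libraries from neurons given AAV1 with a hairpin against Satb1 and EGFP. All animals were C57BL/6 mice carrying the Dat bacTRAP transgene, which marks the ribosomes of cells that express the dopamine transporter. The labels give 3 mice aged 4 months for all 6 libraries, do not assign libraries to mice, describe dissection of the substantia nigra pars compacta and ventral tegmental area, and state no ribosome capture step. There were 3 libraries a group, so p-values measure the spread between these libraries only, which may be technical.

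Nucleosome remodellers use ATP to slide, evict or exchange nucleosomes. Most of the SMARC genes encode ATPases and core subunits of the SWI/SNF (BAF) complexes or, as Smarca1 and Smarca5, the ISWI ATPases. The family by name also holds others, such as Smarcal1 and the pseudogene Smarca5-ps. CHD proteins are a further ATPase family, of which Chd3, Chd4 and Chd5 serve the NuRD deacetylase complex. HDAC and SIRT enzymes remove acetyl groups from histones and other proteins, KAT enzymes add them, KDM enzymes remove methyl groups, and EZH enzymes place the Polycomb mark on histone H3 that some CBX proteins read. SATB1 is known from lymphocytes to bring HDAC1, NuRD, ISWI and BAF proteins to the DNA it binds, and neurons are known for BAF complexes of their own subunit makeup.

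Satb1 was at 351, 350 and 319.8 CPM (read counts relative to the scaled library total) in control libraries 1 to 3 and at 82.9, 166 and 61.2 CPM in knockdown libraries 1 to 3. Every knockdown library was thus below every control library, with library 2 the least reduced (log2 fold change -1.72 ± 0.26 SE, edgeR quasi-likelihood test, adjusted p = 0.00106). Library totals lay between 147486754 and 170351145 counts, and 1 count corresponded to 0.00557 to 0.00672 CPM. The defining dopamine neuron genes were present in all libraries, with a mean level of Th of 3507 CPM in controls against 2410 CPM after knockdown, and 6 of 12 listed dopamine neuron markers fell while none rose. Markers of oligodendrocytes rose for 10 of 12 genes, and their summed level was 424 to 489 CPM in control libraries and 665 to 749 CPM after knockdown. Summed microglia markers were at 26.2 to 27.6 and 26.8 to 34.6 CPM (3 of 12 rose and 1 fell; median log2 fold change 1.09), summed astrocyte markers at 267 to 316 and 254 to 259 CPM (3 of 10 rose and 1 fell; median 0.64), and summed vascular markers at 4.72 to 7.99 and 4.87 to 11.5 CPM (1 of 9 rose; median 0.79). P2ry12 and Slc1a2, the genes that fell, held most of the microglia and astrocyte sums in controls, while 11 of 12 and 9 of 10 genes of these lists had log2 fold changes above 0. In bulk RNA, fewer cells of a type and less RNA per cell cannot be told apart, and the part of these other cells in the results on chromatin genes was not tested. Transcripts of the Y chromosome, among them the member Kdm5d, were present in all 6 libraries, and Xist did not exceed 0.0269 CPM in any.

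All 71 members passed the filter on low counts and were tested. With a threshold of 0.05 on the adjusted p, 4 rose, 12 fell and 55 did not pass, so that 22.5% changed. An unadjusted p under 0.05 was found for 25 members and for 33.6% of all tested genes. Among all 16766 genes tested, 21.1% passed, 8.48% as higher and 12.6% as lower, so the share of members was close to that of the table as a whole. The libraries of the groups did not overlap for 31 members, 9 above and 22 below the controls, against 38.7% of all tested genes (17.9% above and 20.8% below). The median log2 fold change was -0.06 for the members and 0.01 for all tested genes, and the median size regardless of sign was 0.19 for the members and 0.30 for all genes. Changes of at least 2-fold were found for 3 called members, Chd1l, Hdac7 and Cbx8, while 2.75% of all genes were called and changed that much. Members were more abundant than the average gene, with a median control level of 46.4 CPM against 14.5 CPM. Those that fell had a median control level of 76.8 CPM and those that rose one of 11.2 CPM.

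**Figure D1:**
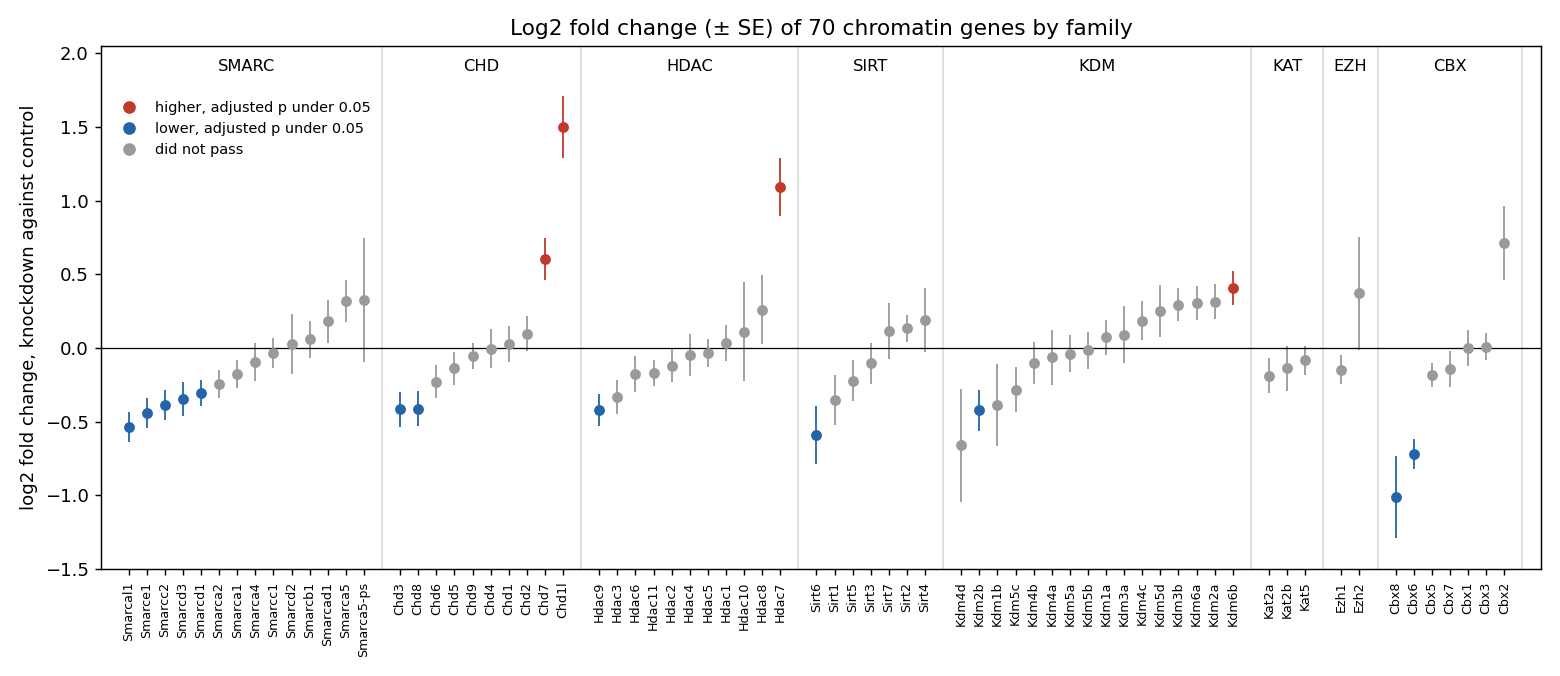
Log2 fold change of 70 of the 71 genes in the knockdown against the control (points) with its standard error (bars), ordered within families; red and blue points passed at an adjusted p under 0.05 and grey points did not. Chd1l (1.5) lies highest and Cbx8 (-1.01) lowest, and all 5 coloured SMARC genes lie below 0.

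The balance of higher and lower members depended on how libraries were scaled. The trimmed mean of M-values (TMM), used throughout, gave control libraries factors of 0.925 to 0.955 and knockdown libraries factors of 1.04 to 1.09. With total counts instead, the median of all genes moved from 0.01 to 0.18, that of the members from -0.06 to 0.11, and 10 members were higher and 3 lower. The 3 that stayed lower were Cbx6, Cbx8 and Smarcal1, and all 4 that rose with TMM also passed with total counts. The 6 further members called higher with total counts were Cbx2, Kdm2a, Kdm3b, Kdm6a, Sirt2 and Smarca5. Under all 13 alternative settings, which included leaving out each library in turn, 5 members kept their call: Cbx6, Smarcal1, Chd1l, Chd7 and Hdac7. The number of lower members was 7 without control library 1, 3 without control library 2, 5 without control library 3 and 3 without knockdown library 1. For all genes the same omissions reduced the lower calls from 2115 to 1526, 1322, 1515 and 1132. Knockdown library 2 lay nearest to the controls for 9 of the 16 called members and for 67.7% of all called genes, and knockdown library 1 for none of the 16 and for 14.1% of all called genes.

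**Figure D2:**
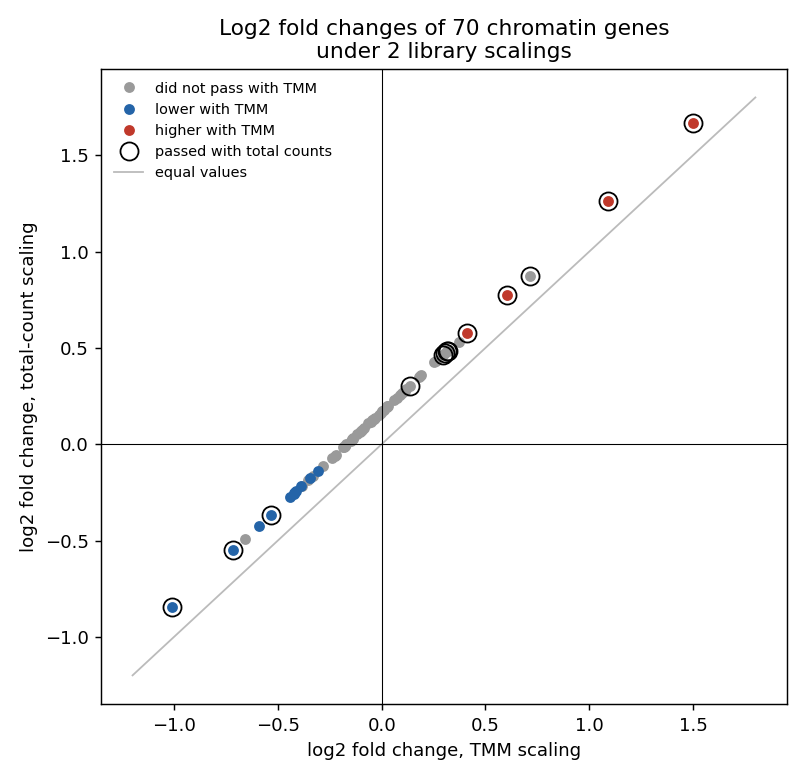
Log2 fold change of 70 of the 71 genes with TMM scaling (x axis) and with total-count scaling (y axis); colours give the call with TMM, open circles mark genes that passed with total counts, and the grey line marks equal values. All points lie above the line by a nearly constant amount, and 3 blue points, Cbx6, Cbx8 and Smarcal1, carry an open circle.

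Among the SMARC genes, 5 fell, none rose and 9 did not pass, with a median log2 fold change of -0.14; with total-count scaling the median was 0.03, 1 gene was lower and 1 higher. Smarcal1, an annealing helicase that remodels stalled replication forks and is no BAF subunit, was at 233, 251 and 247 CPM in control libraries 1 to 3 and at 145, 176 and 184 CPM in knockdown libraries 1 to 3. All knockdown values lay below all control values, and the log2 fold change was -0.53 ± 0.10 (SE; adjusted p = 0.00348), or -0.37 with total counts (adjusted p = 0.0153). Smarcal1 was among the most abundant members per length, at 42.6 ± 1.72 RPKM (the CPM per kilobase of exon; SD, n = 3) in controls.

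The other SMARC genes that fell encode BAF subunits. Smarce1, the HMG-box subunit of BAF, was at 44.4, 45.6 and 49.2 CPM in the controls and at 34.7, 35.6 and 32.1 CPM in the knockdown (log2 fold change -0.44 ± 0.10, SE; adjusted p = 0.0102). Its groups were well apart, and its call was kept without each single library but not with total counts (-0.27, adjusted p = 0.079). Smarcc2, one of a pair of scaffold subunits, was at 219.9, 242 and 268 CPM in the controls and at 172, 198 and 187 CPM in the knockdown (-0.39 ± 0.10, SE; adjusted p = 0.0158). No knockdown library reached the lowest control. Smarcd1 and Smarcd3, alternative subunits that link BAF to transcription factors, were also lower. Smarcd1 was at 103, 108 and 98.2 CPM in the controls and at 83.0, 85.2 and 82.1 CPM in the knockdown (-0.31 ± 0.09, SE; adjusted p = 0.0300). Smarcd3 was at 57.8, 51.9 and 59.7 CPM in the controls and at 43.6, 49.9 and 39.8 CPM in the knockdown (-0.35 ± 0.11, SE; adjusted p = 0.0463), so that its groups were separated by the narrow gap between control library 2 and knockdown library 2. With total counts these 3 values were -0.22, -0.14 and -0.18 and did not pass. The call for Smarcc2 did not hold when control library 2 or 3 or knockdown library 1 was left out (adjusted p up to 0.0879). The call for Smarcd1 was lost without control library 1 or 2 or knockdown library 1 or 3 (up to 0.134), and that for Smarcd3 without any single library except knockdown library 2 (up to 0.156), with relative log expression factors and with a minimum mean of 1 CPM. Exons of Smarcd3 share 50.1% of their bases with other annotated genes, chiefly Chpf2 on the opposite strand, which itself fell (-0.48), and exons of Smarcd1 share 12.7%. Without strand in the counting, reads of such pairs cannot be separated.

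The catalytic subunits of BAF and its core did not pass. Smarca2 and Smarca4, the alternative ATPases, differed by -0.24 ± 0.10 and -0.09 ± 0.13 on the log2 scale (SE; adjusted p = 0.0938 and 0.659). Smarca2 was at 327, 345 and 350 CPM in the controls and at 265, 276 and 324 CPM in the knockdown, all below the controls, whereas the libraries of Smarca4 overlapped. Smarca2 passed as lower with the replicate block and without knockdown library 3. The core subunit genes Smarcb1 and Smarcc1 were at 0.06 ± 0.13 and -0.03 ± 0.10. Smarcd2, the third member of its slot, had a control level of 5.73 ± 0.91 CPM and a knockdown level of 5.83 ± 0.91 CPM (SD, n = 3 each). Of 9 canonical BAF genes among the members, 4 were lower with TMM and none with total counts, where the median was -0.07 against -0.24. With TMM 12.6% of all tested genes were lower.

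**Figure D3:**
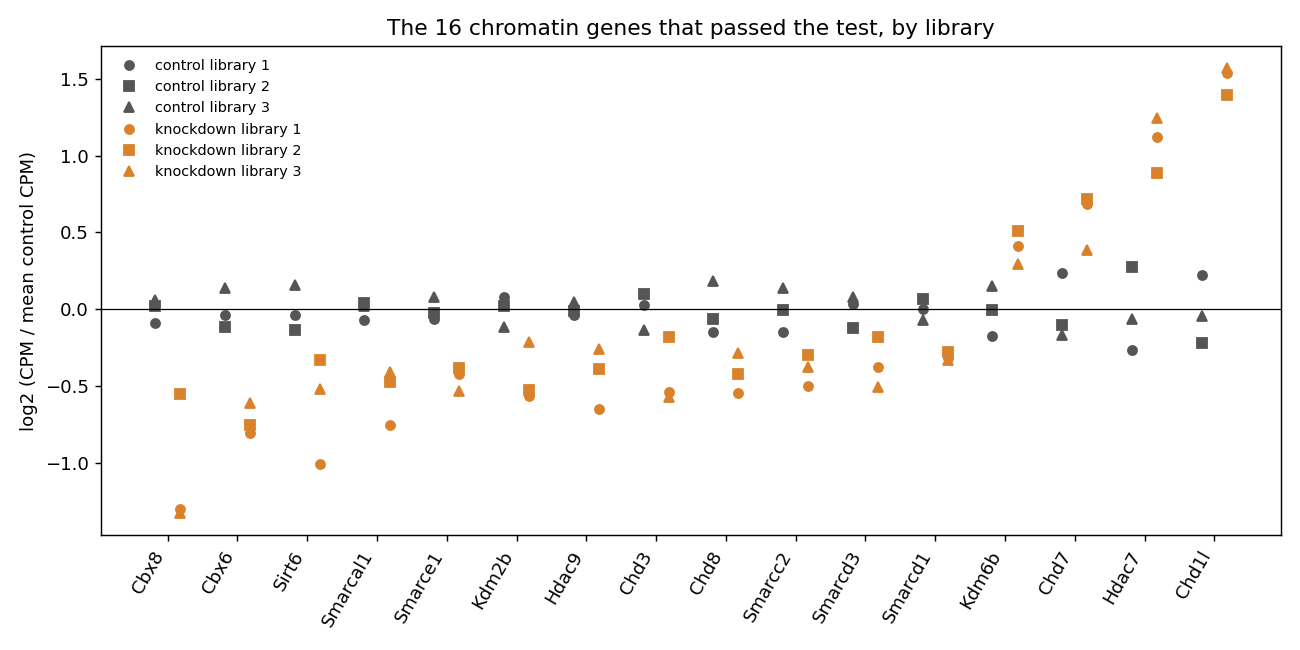
Level of each of the 16 genes that passed the test in every library, as the log2 ratio of its CPM to the mean of the control libraries; grey symbols are control and orange symbols knockdown libraries, with 1 shape per replicate number. The groups do not overlap for any of the 16 genes, and knockdown library 1 is never the orange symbol nearest to the controls.

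The bases before an annotated start are shown for 4 members that changed, chosen among windows that hold no exon of GENCODE M21, because SATB1 binds AT-rich DNA and these windows span the range of base composition. They were taken from RefSeq for GRCm38.p6, are read 5′ to 3′ on the strand of the gene, and have runs of at least 6 A or T bases in capitals. The first is Smarcc2 (lower; plus strand, chr10:128458986-128459181), the second Smarcal1 (lower; plus strand, chr1:72583001-72583250), the third Hdac9 (lower; minus strand, chr12:34917096-34917345) and the last Hdac7 (higher; minus strand, chr15:97844503-97844752).
Smarcc2: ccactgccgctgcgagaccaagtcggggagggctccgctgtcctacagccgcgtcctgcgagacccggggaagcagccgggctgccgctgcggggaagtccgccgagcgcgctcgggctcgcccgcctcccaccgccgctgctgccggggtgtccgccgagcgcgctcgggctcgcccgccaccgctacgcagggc
Smarcal1: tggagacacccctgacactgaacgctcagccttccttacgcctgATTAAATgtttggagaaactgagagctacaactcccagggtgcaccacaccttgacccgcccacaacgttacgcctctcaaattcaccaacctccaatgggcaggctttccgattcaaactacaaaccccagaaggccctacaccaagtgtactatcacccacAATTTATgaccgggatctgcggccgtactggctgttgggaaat
Hdac9: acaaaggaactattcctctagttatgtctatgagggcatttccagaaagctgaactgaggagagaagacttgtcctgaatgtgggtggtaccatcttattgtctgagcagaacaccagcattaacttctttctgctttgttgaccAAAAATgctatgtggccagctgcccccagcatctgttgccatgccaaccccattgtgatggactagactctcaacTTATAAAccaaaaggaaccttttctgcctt
Hdac7: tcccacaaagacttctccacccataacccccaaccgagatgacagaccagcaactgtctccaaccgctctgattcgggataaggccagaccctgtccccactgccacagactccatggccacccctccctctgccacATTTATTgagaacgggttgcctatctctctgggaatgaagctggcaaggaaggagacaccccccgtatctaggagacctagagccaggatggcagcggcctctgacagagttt
Each holds 250 bases except that of Smarcc2, which holds 196 and ends where the RefSeq gene begins, and the start used for Smarcal1 lies inside the span of its RefSeq gene. The Smarcc2 window was 78.1% G or C, with 30 CG dinucleotides and 0 such runs, while the Hdac9 window was 44.4% G or C, with 0 CG dinucleotides and 2 runs. The Smarcal1 window (52.0%) held 2 runs and the Hdac7 window (56.4%) 1. Hdac7 and Hdac9 also have windows at other annotated starts, not shown, with 0 runs in each for Hdac7 and 6 for Hdac9. Smarcal1 also held CCAAT, the NF-Y motif, 113 bases before the start. The same window held TTCAAA, the reverse complement of the cell cycle homology region motif TTTGAA, 93 bases before the start. Windows were found for 55 of the 71 members. A run of at least 6 A or T bases was in 41 of 75 member windows (54.7%) and in 54.6% of the 16532 windows of tested genes, so the members did not stand out. For members called lower it was in 7 of 15 windows (46.7%), and for those called higher in 2 of 5 (40.0%). Of 6 motifs searched on both strands in the windows with 50 further bases, CCAAT was found for 26 of the 55 members (47.3%) against 42.3% of tested genes and TTTGAA for 9 (16.4%) against 14.9%. The ETS motif CCGGAAG was found for 9 members (16.4%) against 16.7%, the E2F motif TTCGCGC for 2 (3.64%) against 3.08%, and the NRF1 and YY1 motifs for 1 member each (1.82%) against 1.92% and 1.45%. A match is a run of letters and not a bound site.

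Of the genes of proteins that SATB1 is known to recruit, Chd3 of NuRD and 4 of 9 canonical BAF genes fell with TMM. Over all tested genes, 12.6% fell. These BAF genes were Smarce1, Smarcc2, Smarcd1 and Smarcd3, and neither they nor Chd3 passed with total counts. Without control library 2 or knockdown library 1, only 1 of the 9 BAF genes was lower, and Chd3 lost its call in both fits. The other members described here did not pass with TMM. Hdac1 was at 27.0, 31.1 and 34.0 CPM in the controls and at 28.9, 30.8 and 34.5 CPM in the knockdown (log2 fold change 0.03 ± 0.12, SE; adjusted p = 0.891). The libraries overlapped throughout. Chd4, the NuRD ATPase, was at 76.7, 84.7 and 97.5 CPM and at 76.6, 77.9 and 103 CPM (-0.01 ± 0.13, SE). Smarca5, the ISWI ATPase, was at 96.6, 115 and 109 CPM in the controls and at 116, 115 and 169 CPM in the knockdown (0.32 ± 0.14, SE; adjusted p = 0.132). Knockdown library 3 alone was far above the controls, and the value passed with the replicate block and with total counts (0.49 and adjusted p = 0.0218 with total counts). Smarca1, the other ISWI ATPase, was at -0.18 ± 0.10 (SE), with all knockdown libraries below the controls. Kat2b, the acetyltransferase PCAF, was at -0.14 ± 0.15 (SE). Outside the members, Ctbp1, a corepressor that also binds SATB1, fell from 106 ± 8.10 to 75.1 ± 9.27 CPM (SD, n = 3 each; log2 fold change -0.50, adjusted p = 0.00752; -0.33 with total counts, adjusted p = 0.0456). It was 1 of 6 that fell among 33 listed partners in NuRD, Sin3, CoREST and NCoR, and 27 did not pass. Mta2 and Sin3a were among those 27 (-0.01 and 0.03, adjusted p = 0.980 and 0.922). The ISWI partner Baz1a, at 0.27 CPM in controls, did not pass either (-0.01). Smarca5-ps, a pseudogene of Smarca5, was near 1 CPM (1.07 ± 0.29 in controls, 1.34 ± 0.41 in the knockdown; SD, n = 3 each), and reads shared with Smarca5 may be counted in either.

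The CHD genes moved in both directions: 2 rose, 2 fell and 6 did not pass. With total-count scaling the same 2 were higher and none was lower, and the median moved from -0.03 to 0.14. Chd1l (ALC1), a remodeller that is activated by poly(ADP-ribose) at DNA breaks, was the member with the largest log2 fold change. It was at 2.88, 2.12 and 2.39 CPM in the controls and at 7.14, 6.47 and 7.31 CPM in the knockdown, a 2.83-fold rise (1.5 ± 0.21, SE; adjusted p = 0.000608). The groups were far apart, and without any single library the adjusted p stayed at or below 0.00457. Chd7, the gene of CHARGE syndrome, was at 21.4, 16.9 and 16.2 CPM in the controls and at 29.2, 29.9 and 23.8 CPM in the knockdown (0.61 ± 0.14, SE; adjusted p = 0.0102). Its lowest knockdown library lay just above its highest control.

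Chd3 and Chd8 fell by similar amounts. Chd3, an ATPase of NuRD, was at 98.9, 104 and 88.4 CPM in the controls and at 67.0, 85.8 and 65.4 CPM in the knockdown (-0.42 ± 0.12, SE; adjusted p = 0.0266). Chd8, a remodeller whose loss is tied to autism, was at 49.5, 52.4 and 62.1 CPM in the controls and at 37.5, 40.8 and 44.9 CPM in the knockdown (-0.41 ± 0.12, SE; adjusted p = 0.0261). Knockdown library 2 came close to the lowest control for Chd3, and the gap was wider for Chd8. The call for Chd3 was lost with total counts (-0.25) and without control library 1 or 2 or knockdown library 1 or 3 (adjusted p up to 0.128). That for Chd8 was lost with total counts (-0.24) and without control library 2 or 3 or knockdown library 1 or 2 (up to 0.123). Chd5, the NuRD ATPase typical of neurons, was the most abundant of the NuRD group per length (24.8 ± 2.27 RPKM; SD, n = 3) and was at -0.14 ± 0.11 (SE). Its share of the summed RPKM of Chd3, Chd4 and Chd5 was 52.6 ± 1.85% in controls and 53.7 ± 1.55% in the knockdown (SD, n = 3 each), and the libraries overlapped.

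Among the HDAC genes 1 rose, 1 fell and 9 did not pass. Both belong to class IIa, whose enzymes shuttle between nucleus and cytoplasm. Hdac7 was at 3.48, 5.07 and 4.0 CPM in the controls and at 9.12, 7.74 and 9.90 CPM in the knockdown, a 2.13-fold rise (1.09 ± 0.20, SE; adjusted p = 0.00261). Every knockdown library was clearly above every control, and the adjusted p stayed at or below 0.0137 without any single library. Hdac9 was at 126, 128 and 133 CPM in the controls and at 82.5, 98.7 and 108 CPM in the knockdown (-0.42 ± 0.11, SE; adjusted p = 0.0153). The controls of Hdac9 lay close together and the knockdown libraries were spread out below them. Its call was lost with total counts (-0.25, adjusted p = 0.0859) and without control library 2 or 3 or knockdown library 1 (adjusted p up to 0.0838). The other class IIa genes, Hdac4 and Hdac5, overlapped between the groups.

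The class I deacetylase genes Hdac1, Hdac2, Hdac3 and Hdac8 did not pass, with log2 fold changes between -0.33 (Hdac3) and 0.26 (Hdac8). Of their proteins, HDAC1 and HDAC2 form the catalytic core of NuRD, Sin3 and CoREST. Hdac3, the enzyme of the NCoR corepressor, was nearest to the threshold among all members that did not pass, at 78.8, 66.3 and 72.1 CPM in the controls and 55.2, 65.7 and 51.9 CPM in the knockdown (-0.33 ± 0.11, SE; adjusted p = 0.0589). It passed as lower with DESeq2, with limma-voom, with the replicate block and without knockdown library 2. On the other side of the threshold lay Sirt6 (adjusted p = 0.0467) and Smarcd3. Hdac2, the main neuronal partner of Hdac1, was at -0.12 ± 0.11 (SE) and made up 73.9 ± 2.59% of the summed RPKM of Hdac1 and Hdac2 in controls and 71.9 ± 0.93% in the knockdown (SD, n = 3 each). Hdac11, the class IV deacetylase, was the most abundant of all 71 members per length, at 85.6 ± 3.78 RPKM (SD, n = 3) in controls. It made up 51.4 ± 0.89% of the summed RPKM of the 11 HDAC genes in controls and 50.9 ± 2.37% in the knockdown. Its level was 336, 313 and 339 CPM in the controls and 292, 310.4 and 276 CPM in the knockdown (-0.17 ± 0.09, SE; adjusted p = 0.193). The next members in the order of control levels, Smarcc2 (43.8 ± 4.30 RPKM), Cbx5 (43.1 ± 2.42), Smarcal1 (42.6 ± 1.72) and Cbx3 (40.6 ± 1.90), followed, of which the first 3 did not differ beyond their SD (n = 3 each).

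Sirtuins are deacetylases that depend on NAD. Sirt6, a nuclear sirtuin of telomeres and DNA repair, was the one of 7 that passed, at 9.72, 9.09 and 11.2 CPM in the controls and at 4.98, 7.95 and 6.99 CPM in the knockdown (-0.59 ± 0.19, SE; adjusted p = 0.0467). Knockdown library 2 was nearest to the controls. The call was lost with total counts (-0.42, adjusted p = 0.123), with relative log expression factors, with a minimum mean of 1 CPM and without any single library except knockdown library 2 (adjusted p up to 0.18). Sirt1 was at 9.01, 9.02 and 8.93 CPM in the controls and at 6.21, 6.53 and 8.37 CPM in the knockdown (-0.35 ± 0.17, SE; adjusted p = 0.166). Sirt2, a mainly cytoplasmic sirtuin that is abundant in myelinating oligodendrocytes, was at 105, 113 and 117 CPM and at 119, 127 and 122 CPM (0.13 ± 0.09, SE; adjusted p = 0.329). All its knockdown libraries were above the controls, as were the summed oligodendrocyte markers given above, and it passed with total counts (0.30, adjusted p = 0.0258). Whether these differences are linked was not tested.

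Histone demethylases had 1 higher and 1 lower gene among 16, with 14 that did not pass. Kdm6b (JMJD3), which removes the repressive Polycomb mark, was at 31.3, 35.2 and 39.2 CPM in the controls and at 46.9, 50.2 and 43.3 CPM in the knockdown (0.41 ± 0.12, SE; adjusted p = 0.0246). The groups were apart, and the call was lost without control library 1 or 2 or knockdown library 1 or 2 (adjusted p up to 0.0989). Kdm2b, which binds CG-rich DNA and brings Polycomb repressive complex 1 there, was at 20.4, 19.6 and 17.8 CPM in the controls and at 13.0, 13.4 and 16.7 CPM in the knockdown (-0.42 ± 0.14, SE; adjusted p = 0.0436). Its call was lost with total counts (-0.26), with a minimum mean of 1 CPM and without any single library except knockdown library 3 (adjusted p up to 0.161), and 8.7% of its exon bases overlap other genes.

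Among the 16 KDM genes, 4 lay above the controls in all 3 knockdown libraries and 2 lay below. Over all tested genes, 17.9% lay above and 20.8% below. Those above that did not pass were Kdm2a, Kdm3b and Kdm6a, while Kdm4d, which did not pass either, lay below (-0.66 ± 0.38, SE; adjusted p = 0.253). Kdm2a, which removes methyl groups from H3K36, was at 93.0, 90.1 and 99.1 CPM in the controls and at 110, 101 and 139 CPM in the knockdown (0.31 ± 0.12, SE; adjusted p = 0.0811). Kdm3b was at 0.29 ± 0.11 (adjusted p = 0.0768) and Kdm6a (UTX), the X-linked relative of Kdm6b, at 0.31 ± 0.12 (SE; adjusted p = 0.0833). All 3 passed with total counts, with 0.48, 0.46 and 0.47. They also passed with DESeq2, with a minimum mean of 1 CPM and with the replicate block. Kdm2a passed without knockdown library 2 as well, and Kdm6a without control library 1. Kdm1a (LSD1), the demethylase of CoREST, had a control level of 69.3 ± 5.58 CPM and a knockdown level of 72.9 ± 9.76 CPM (SD, n = 3 each). The X-linked gene Kdm5c was at -0.28 ± 0.15 and its Y-linked relative Kdm5d at 0.25 ± 0.18 (SE), and the libraries of each overlapped.

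The 3 KAT genes of the table, Kat2a, Kat2b and Kat5, had log2 fold changes between -0.19 and -0.08 and none passed. The table uses older symbols for other members of the KAT and KDM families, which the name pattern does not catch. There were 7 rows whose current RefSeq symbol fits it, and 3 of these rose and 1 fell. Myst3, now Kat6a, a MYST acetyltransferase of H3, was at 52.0, 45.6 and 52.8 CPM in the controls and at 80.4, 71.3 and 91.4 CPM in the knockdown (0.69 ± 0.11, SE; adjusted p = 0.00153). Jhdm1d, now Kdm7a, was at 49.3, 45.6 and 47.1 CPM in the controls and at 68.2, 64.8 and 98.5 CPM in the knockdown (0.71 ± 0.14, SE; adjusted p = 0.00474). Both were above the controls in every knockdown library and kept their calls under the 13 alternative settings. Csrp2bp, now Kat14, a subunit of the ATAC acetyltransferase complex, fell from 34.1 to 18.6 CPM (-0.88 ± 0.14, SE; adjusted p = 0.00126), a call that was also kept under all 13. Jmjd5, now Kdm8, rose from 2.47 to 4.88 CPM (adjusted p = 0.0189), a call lost without control library 1 or knockdown library 2 or 3 (adjusted p up to 0.0624). Myst1, Myst2 and Myst4 (Kat8, Kat7 and Kat6b) did not pass, at 0.06, -0.18 and 0.26. These 7 rows were looked up after the members' values were seen and are in none of the counts over the 71 members.

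The Polycomb system joins PRC2, in which Ezh1 or Ezh2 methylates H3K27, with PRC1, in which a CBX protein reads that mark. Ezh1 was the main EZH gene in these libraries, at 96.3 ± 1.67% of the summed RPKM of both in controls and 94.7 ± 1.49% in the knockdown (SD, n = 3 each). Ezh1 was at 65.8, 67.7 and 62.5 CPM in the controls and at 54.7, 59.8 and 62.4 CPM in the knockdown (-0.15 ± 0.10, SE; adjusted p = 0.32), and Ezh2 at 2.39, 3.34 and 1.08 CPM and at 2.88, 3.80 and 2.13 CPM (0.37 ± 0.38, SE; adjusted p = 0.544). Ezh2 varied about as much within as between the groups.

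Among the Polycomb CBX genes, Cbx6 and Cbx8 fell, with TMM and with total counts alike. Cbx6 was at 210.1, 199.8 and 238 CPM in the controls and at 124, 128 and 142 CPM in the knockdown, a 1.65-fold decrease (-0.72 ± 0.10, SE; adjusted p = 0.000592; -0.55 with total counts, adjusted p = 0.00161). The gap between the groups was wider than the spread within either. Per length, Cbx6 was at 20.3 ± 1.84 RPKM in controls, above Cbx7 (5.30 ± 0.68), Cbx8 (1.11 ± 0.06) and Cbx2 (0.921 ± 0.284; SD, n = 3 each). Exons of Cbx6 overlap those of Npcd on the same strand (5.3% of its bases), a read-through gene that fell by nearly the same amount (-0.71), and how reads of shared exons were assigned is not given in the sources used here. Cbx8 was at 3.86, 4.16 and 4.28 CPM in the controls and at 1.67, 2.80 and 1.64 CPM in the knockdown, a 2.01-fold decrease (-1.01 ± 0.28, SE; adjusted p = 0.0219). Knockdown library 2 was nearest to the controls, and the call was lost without control library 2 or 3 or knockdown library 1 or 3 (adjusted p up to 0.0881).

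Cbx2, the neighbour of Cbx8 at a distance of 5027 bases on chromosome 11, differed in the other direction. It was at 4.90, 4.30 and 2.57 CPM in the controls and at 5.41, 7.48 and 6.40 CPM in the knockdown (0.71 ± 0.25, SE; adjusted p = 0.0611), above the controls in all libraries, and passed with total counts (0.87, adjusted p = 0.0255). Cbx2 also passed with DESeq2, with a minimum mean of 1 CPM, with the replicate block and without control library 1. Cbx7, next to Cbx6 on chromosome 15, was at -0.14 ± 0.12 (SE; adjusted p = 0.464). Another pair of neighbours also differed in direction: Chd3, which fell, and Kdm6b, which rose, lie 29008 bases apart on the minus strand of chromosome 11. The HP1 genes Cbx1, Cbx3 and Cbx5, whose proteins read methylated H3K9 in heterochromatin, did not pass, with log2 fold changes between -0.18 and 0.01. Cbx5 was at 387, 368 and 411 CPM in the controls and at 342, 342 and 343 CPM in the knockdown (-0.18 ± 0.08, SE; adjusted p = 0.144), so that the groups did not overlap although the difference was small.

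Ratios of 2 related genes within a library do not depend on library scaling, and 17 pairs were compared (the listed pair of Kat6a and Kat6b, which the table holds as Myst3 and Myst4, was not among them). The groups did not overlap for 6 of the 17 ratios, where single genes did not overlap in 38.7% of all tested genes. With 3 against 3 libraries the two-sided exact permutation test cannot give less than p = 0.1, which was the value for these 6 pairs (0.283 after Benjamini-Hochberg adjustment over 17), so that none could pass. The count ratio of Smarcc2 to Smarcc1 was 1.63, 1.75 and 1.74 in control libraries and 1.28, 1.54 and 1.23 in knockdown libraries 1 to 3. The knockdown ratios were lower by 0.35 on the log2 scale, and Smarcc2 made up 70.6 ± 0.81% of the summed RPKM of both genes in controls and 65.4 ± 2.71% in the knockdown (SD, n = 3 each). The ratio of Cbx6 to Cbx7 was 5.62, 5.48 and 8.09 in controls and 3.76, 4.53 and 4.38 in the knockdown. That of Smarca1 to Smarca5 was 0.644, 0.572 and 0.632 in controls and 0.478, 0.497 and 0.364 in the knockdown, so that Smarca5 made up 56.1 ± 1.57% and then 64.0 ± 3.84% of the ISWI pair by RPKM (SD, n = 3 each). The ratio of Sirt2 to Sirt1 rose from between 11.7 and 13.1 in controls to between 14.6 and 19.4 in the knockdown, without a test that could pass. The ratios of Cbx3 to Cbx5 and of Hdac11 to Hdac3 were higher by 0.19 and 0.16 on the log2 scale. The ratios of Smarca2 to Smarca4 (2.63, 2.55 and 2.08 against 2.18, 2.23 and 2.09), of Smarcd3 to Smarcd1 and of Hdac2 to Hdac1 overlapped between the groups.

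**Figure D4:**
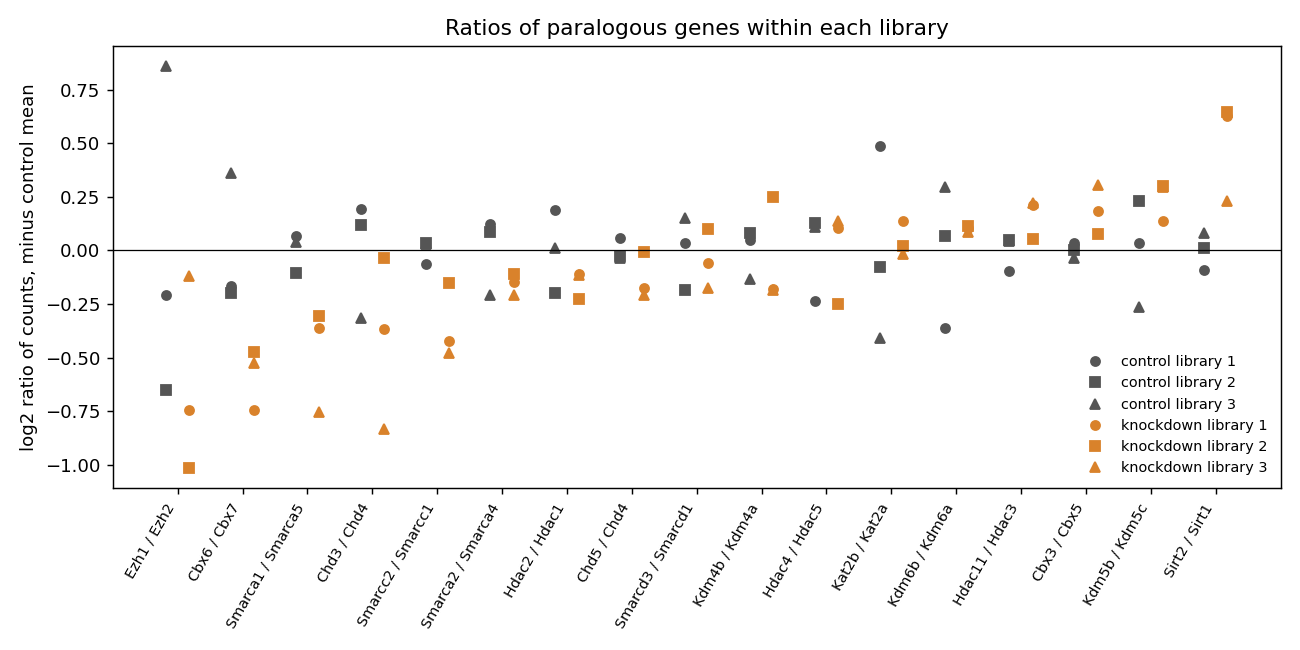
Log2 ratio of the counts of 2 related genes in each library, after subtraction of the mean of the control libraries; grey symbols are control and orange symbols knockdown libraries, with 1 shape per replicate number. Groups are apart for Cbx6 to Cbx7, Smarca1 to Smarca5, Smarcc2 to Smarcc1, Hdac11 to Hdac3, Cbx3 to Cbx5 and Sirt2 to Sirt1, and the controls of Ezh1 to Ezh2 are widely spread.

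Partner subunits outside the name pattern were counted in the same fit. Of 18 BAF partners 3 rose and 2 fell (3 and 2 with total counts), with a median of 0.05. Dpf2, a PHD-finger subunit found in most cell types, rose from a mean of 54.8 CPM to one of 122 CPM (1.15 ± 0.13 on the log2 scale, SE; adjusted p = 0.000312), and Phf10, a subunit of the PBAF form, rose from 70.5 to 109 CPM (0.63; adjusted p = 0.00254). Of the neuronal subunit genes, Ss18l1 (CREST) and Actl6b fell, from 130.1 to 81.3 CPM (-0.68; adjusted p = 0.00106) and from 21.5 to 13.4 CPM (-0.68; adjusted p = 0.00755), while Dpf1 and Dpf3 did not pass (0.28 and 0.43). Ss18, the relative of Ss18l1 in dividing cells, rose from 5.94 to 8.46 CPM (0.51; adjusted p = 0.0438), a call lost without any single library (adjusted p up to 0.128), with limma-voom and with no filter. Dpf2, Phf10, Ss18l1 and Actl6b kept their calls under all 13 alternative settings.

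Of 27 Polycomb partners 5 rose and 2 fell, with a median of 0.09 (8 and 2, and 0.26, with total counts); without control library 2 or knockdown library 1 those that rose were 3. The PRC2 core gene Eed rose from 14.8 to 26.7 CPM (0.85 ± 0.12, SE; adjusted p = 0.000714) and Pcgf5, which forms variant PRC1, from 4.51 to 12.1 CPM (1.43 ± 0.21, SE; adjusted p = 0.000873). Phc3, the polyhomeotic subunit of canonical PRC1, fell from 83.5 to 57.0 CPM (-0.55; adjusted p = 0.00153). Among 33 partners in NuRD, Sin3, CoREST and NCoR none rose and 6 fell, those with the smallest p being Tbl1x of NCoR (-0.46), Ctbp1 and the histone chaperone gene Rbbp4 (-0.42), with a median of -0.15; with total counts 3 were higher and 2 lower and the median was 0.02. The call for Rbbp4 was lost without knockdown library 1 (adjusted p = 0.0633) and with total counts. Of 25 genes of the INO80, SRCAP and TIP60 remodellers 4 fell and none rose (2 lower and 3 higher with total counts), among them Yeats4, a reader of acetylated histones, which fell from 100.1 to 37.3 CPM (-1.42), Ino80c (-0.53) and Dmap1 (-0.51). The call for Dmap1 was lost with total counts and without control library 3 or knockdown library 1 (adjusted p up to 0.0988). Of 10 ISWI partners 1 rose, Cecr2, from 1.51 to 4.30 CPM (1.51; adjusted p = 0.0114).

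Histone methyltransferases and their cofactors had 2 higher and 7 lower genes among 35 (5 and 2 with total counts). Suv39h1, which methylates H3K9 in pericentric heterochromatin, fell from 27.4 to 14.9 CPM (-0.88 ± 0.12, SE; adjusted p = 0.000664), and Ash2l and Dpy30, core subunits of the H3K4 methyltransferase complexes, fell by 0.57 and 0.41 on the log2 scale, the call for Dpy30 being lost with total counts. Of 32 other acetyltransferases, demethylases and their cofactors 1 rose and 4 fell (6 and 2 with total counts). Ncoa3, a coactivator, rose from 36.0 to 61.5 CPM (0.77; adjusted p = 0.0018), Clock, the circadian transcription factor with acetyltransferase activity, fell from 86.9 to 59.6 CPM (-0.54; adjusted p = 0.00262), and Ing4 fell from 19.6 to 13.2 CPM (-0.57; adjusted p = 0.00935), a call lost without knockdown library 1 (adjusted p = 0.0512). The shares that passed in the 7 partner lists lay between 10.0 and 27.8%, against 21.1% of all tested genes.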

How the data were processed

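RNA of 3 control and 3 knockdown libraries was analysed from 1 table of whole-number read counts per gene that the authors deposited. The submitters' processing notes list TopHat2 2.0.8 and the build mm10. The counting tool, its annotation, its use of strand and its treatment of reads with several alignments were not given in the sources used. Columns were matched to libraries by the numbers in the sample titles. The test was edgeR 4.0.16 (R 4.3.3) quasi-likelihood with TMM, filterByExpr (minimum count 10, minimum total 15) and Benjamini-Hochberg adjustment over 16766 genes, two-sided, threshold 0.05. Alternatives were other scalings and filters, DESeq2 1.42.0, limma-voom (limma 3.58.1), the replicate number as a block and leaving out each library. RPKM values used exon lengths of GENCODE M21 (GRCm38), matched for all 71 members; coordinates came from RefSeq GRCm38.p6, also matched for 71. Differences between libraries of a group exceeded counting noise (chi-square per gene 58.5 to 156). Each library was counted once, although this excess does not show that the libraries came from different mice. Calling was also run on simulated counts, and the outcome of that check is not given here.

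Named were all called members (full statistics for at most 4 a family, and for Smarcd3 as a member next to the threshold), paralog pairs and at most 3 called genes a partner list; others, such as Actl6b and Ss18, were chosen after their values were seen. The members and lists were chosen with earlier results of these data known. Overlapping genes (30 members share exon bases with another gene) and pseudogenes are uncertain. Values of 1 member that did not pass are not reported here.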

Additional observations from a re-analysis of the deposited data

How the results depend on the processing

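With total counts in place of TMM, the members' median was 0.11 with 10 higher and 3 lower members, and over all genes 2770 were called higher and 972 lower (74.0% higher, against 40.2% with TMM). Higher and lower members were 8 and 13 with DESeq2, 8 and 9 with a minimum mean of 1 CPM, and 4 and 10 with relative log expression factors. These were 29.6%, 23.9% and 19.7% of the members, against 25.2%, 27.3% and 20.7% of all tested genes. Leaving out single libraries gave 3 to 5 higher and 3 to 11 lower members, 804 to 1356 higher and 1132 to 2054 lower genes, and a members' median of -0.12 to 0.010. The cause of these shifts was not tested, nor was the part of the smaller number of libraries when a library was left out.

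Same-numbered libraries had correlations of 0.0564, 0.0127 and 0.108 in their deviations from group means. Knockdown libraries 1 and 3 correlated best with the control library of the same number. Knockdown library 2 correlated better with control library 1 (0.048) than with control library 2 (0.0127). These low correlations cannot decide whether the numbers mark pairs, because the labels do not assign libraries to mice. The main test treated the libraries as unpaired. With the replicate block 9 members were higher and 15 lower, or 33.8% of the members against 28.1% of all tested genes.

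Some differences that did not pass changed sign. With total counts they were 0.050 for Hdac2, 0.16 for Chd4, 0.029 for Chd5, 0.075 for Smarca4, 0.14 for Smarcc1, 0.030 for Kat2b, 0.018 for Ezh1 and 0.027 for Cbx7. The Chd4 log2 fold change was 0.0073 with relative log expression factors, 0.0059 with DESeq2 and 0.040 with a minimum mean of 1 CPM, where Smarcc1 was at 0.012. Leaving out single libraries gave -0.054 to 0.11 for Hdac1, -0.15 to 0.090 for Chd4, -0.20 to 0.039 for Smarca4, -0.093 to 0.024 for Smarcc1, -0.048 to 0.18 for Smarcb1, -0.039 to 0.067 for Cbx3 and -0.0072 to 0.18 for Kdm1a. For log2 ratios of gene pairs it gave -0.14 to 0.031 for Smarcd3 to Smarcd1, -0.12 to 0.12 for Hdac4 to Hdac5, -0.16 to 0.29 for Kat2b to Kat2a, -0.079 to 0.25 for Kdm6b to Kdm6a and -0.18 to 0.034 for Kdm4b to Kdm4a. Adding 0.5 to counts turned the direction of none of the 17 ratios. The lowest member had a mean near 1.07 CPM in controls, where 1 count is at most 0.00672 CPM.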
